A study of Mus musculus with 4 samples.

Results

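The nuclear genes of mitochondrial oxidative phosphorylation were compared between CD8αβ+ T cells of the gut epithelium and of the spleen. The members are all genes with a probe, other than control probes, whose name starts with *Nduf*, *Sdha* to *Sdhd*, *Uqcr*, *Cox4* to *Cox8* or *Atp5*. This rule took 94 of the 27376 gene names on the array, with 139 of its 41174 probes, and it used no measured value. Of the 94 genes, 36 encode subunits of complex I, 4 of complex II, 8 of complex III and 18 of complex IV, and 16 belong to ATP synthase. *Ndufa4*, once counted with complex I, was placed in complex IV, and the 16 of ATP synthase include the pseudogene *Atp5c1-ps*. The other 12 are assembly factors and related proteins whose names share these prefixes.

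CD8αβ+ IELs are intraepithelial lymphocytes of the small intestine, and CD8αβ+ SPLs are T cells of the spleen gated by the same markers. Both were sorted from untreated WT male mice of 8 to 12 weeks, with 2 samples per group. Per the study's methods, each sample was pooled from several mice and gated as CD45+ CD3+ CD8β+ CD8α+ TCRβ+. Each sample was measured on its own Agilent 1-color array, although those methods name another chip type. The comparison asks how CD8αβ+ T cells of the gut epithelium, which the study describes as resident effector memory cells, differ from those of the spleen. The gate held no marker of naive or memory state, so that tissue and state cannot be told apart.

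Mitochondria make ATP by passing electrons from NADH and succinate through complexes I and II to ubiquinone, through complex III to cytochrome c, and through complex IV to oxygen. Complexes I, III and IV pump protons, and ATP synthase uses their return to make ATP. Most subunits are encoded in the nucleus and a few in mitochondrial DNA, so that both genomes have to be expressed to build the chain, and memory T cells are known for their reliance on this respiration.

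The arrays did not group by tissue alone. Pearson's r across 27912 probes was 0.946 between the IEL replicates and 0.986 between the SPL replicates. It was 0.992 between IEL replicate 2 and SPL replicate 1, which shared slide 2, and 0.911 between IEL replicate 1 and SPL replicate 2, which shared slide 1. Whether the slide or the makeup of the sample brings IEL replicate 2 close to SPL replicate 1 cannot be told apart, and each IEL mean and slide 2 difference includes this array. Differences are therefore also given within each slide, and without IEL replicate 2 where this matters. All 9 CD8 T cell markers, such as *Cd8a* and *Cd3e*, were well above background on every array. Their median log2 fold change was 0.016, but they ran from -1.13 to 0.52. Both IEL arrays lay below both SPL arrays in 4 and above in 3, against 24.6% of all tested genes each way. The 14 markers of the intestinal epithelium were all higher on both IEL arrays, with summed intensities of 10858 and 3771 units in IEL replicates 1 and 2 against 2251 and 1541 in SPL replicates 1 and 2. The sum of 6 Paneth cell genes was 186161, 6286, 4184 and 3143 units in the same order, and that of 4 erythroid genes, including the haemoglobins, was 331, 32312, 47030 and 69538 units. Sums of 5 B cell genes (1108, 8492, 11966 and 11531 units) and of 6 myeloid genes (14840, 27961, 37045 and 52076 units) were also lowest in IEL replicate 1. The part of these other cells in the results below was not tested, and in sorted bulk samples fewer cells of a type and less RNA per cell cannot be told apart.

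Respiratory chain genes were clearly expressed in both tissues, and their levels lay close together. Of the 94 genes, 90 were well above background on all 4 arrays and were tested, with the brightest tested probe standing for a gene. The remaining 4 are tissue isoforms of complex IV described further on. A level is the log2 of the processed intensity minus the array's 75th percentile, so that 0 is that percentile, and a fold change is the mean of the IEL levels minus the mean of the SPL levels. The median log2 fold change of the 90 genes was -0.082, with 66 genes lower and 24 higher in CD8αβ+ IELs, against -0.002 over all 18478 tested genes, of which 50.2% were lower. With limma and Benjamini-Hochberg adjustment over all tested probes, 0 of the 90 genes passed an adjusted p of 0.05, as did 0% of all tested genes. The smallest adjusted p among the members was 0.634. The direction depends on the background correction, since the median was 0.308 under a first normexp fit, in which that of all tested genes was -0.311 and the medians of complexes I to IV and ATP synthase were all above 0. An unadjusted p below 0.05 was reached by 0 of the 90 genes, against 5.88% of all tested genes, and the smallest was 0.0903.

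The small size of the differences was the broadest feature of these genes. The fitted changes ran from -0.75 for *Ndufaf4* to 0.50 for *Cox7a1*. Only 1 of the 90 was at least 1.5-fold apart in the mean, against 28.1% of all tested genes. On slide 1, 1 of the 90 differed by at least 2-fold, against 25.8% of all tested genes, and on slide 2, 0 did, against 3.68%. Respiratory chain genes are brighter than most, so these counts were repeated among genes with a mean level above 2. This limit was set after the data were seen. There, 1 of 74 members was at least 1.5-fold apart in the mean, against 596 of 3826 tested genes of that brightness. At 2-fold, 1 of the 74 differed on slide 1, against 14.3% of the tested genes of that brightness. On slide 2, 0 of the 74 did, against 47 of the 3826, so that count says little about the members. On slide 1 the central 50% of the members lay between -0.39 and 0.04, and that of all tested genes between -0.56 and 0.46.

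**Figure D1:**
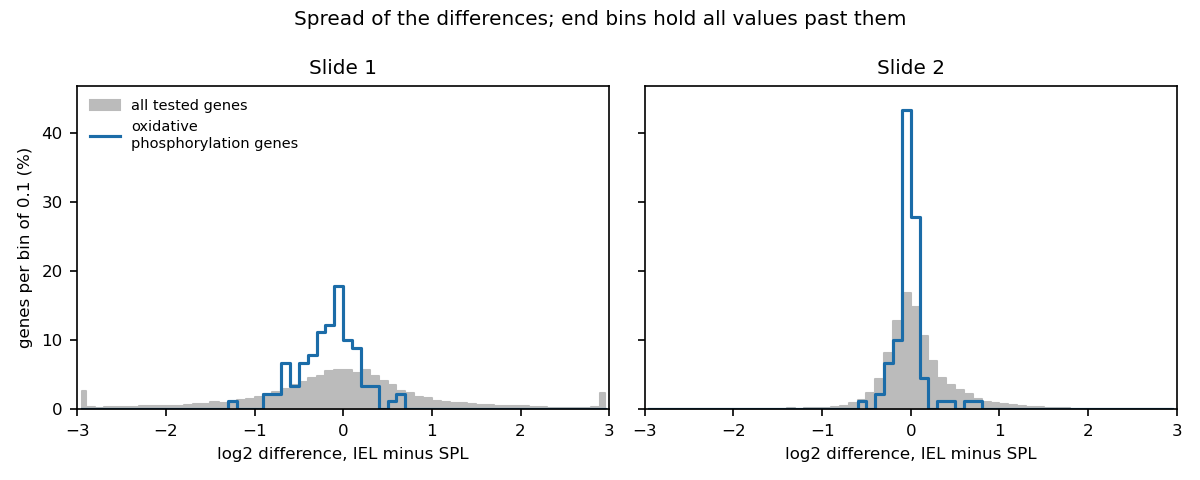
Share of genes (%) by the log2 difference IEL minus SPL in bins of 0.1, on slide 1 (IEL replicate 1 minus SPL replicate 2) and slide 2 (IEL replicate 2 minus SPL replicate 1), for the 90 oxidative phosphorylation genes (line) and all tested genes (grey). The members form a narrower peak than all genes on both slides, with medians of -0.11 on slide 1 and -0.035 on slide 2.

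The same holds between replicates of a tissue. The median absolute difference between IEL replicates was 0.18 for the members and 0.47 for all tested genes. Between SPL replicates it was 0.12 and 0.23. These medians over all tested genes were not matched for brightness. Within slides the median absolute difference between IEL and SPL was 0.21 for the members on slide 1 and 0.062 on slide 2. The distance between the IEL replicates was therefore nearly as large as the distance between the tissues on slide 1, and larger than that on slide 2. The median half-width of the 95% interval of a member's log2 fold change was 0.65, so that changes below about 1.5-fold mostly lay within limma's interval.

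**Figure D2:**
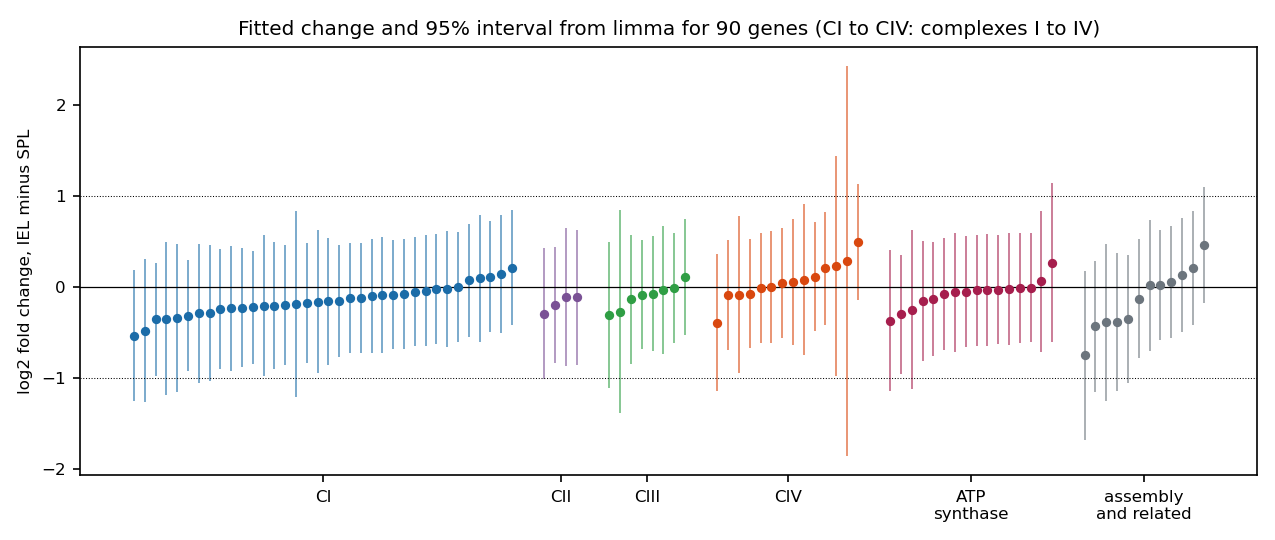
Log2 fold change (IEL minus SPL, 2 arrays per group) of the 90 tested genes with the 95% interval from limma, ordered by size within each complex; dotted lines mark 2-fold. All intervals include 0, and the widest, -1.85 to 2.43, belongs to *Cox6a2*.

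Genes whose IEL arrays both lay below both SPL arrays numbered 29 of 90, against 24.6% of all tested genes. Those with both IEL arrays above numbered 8 of 90, against 24.6% as well. Among genes with a mean level above 2, 26 of 74 members had both IEL arrays below, against 27.7%. The first count depends on the scaling, since 46 genes lay below and 2 above when arrays were scaled by their medians. The median log2 fold change of all tested genes also moved in that setting, from -0.002 to -0.058. The lower side was thus made up of many small differences, which are described complex by complex.

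**Figure D3:**
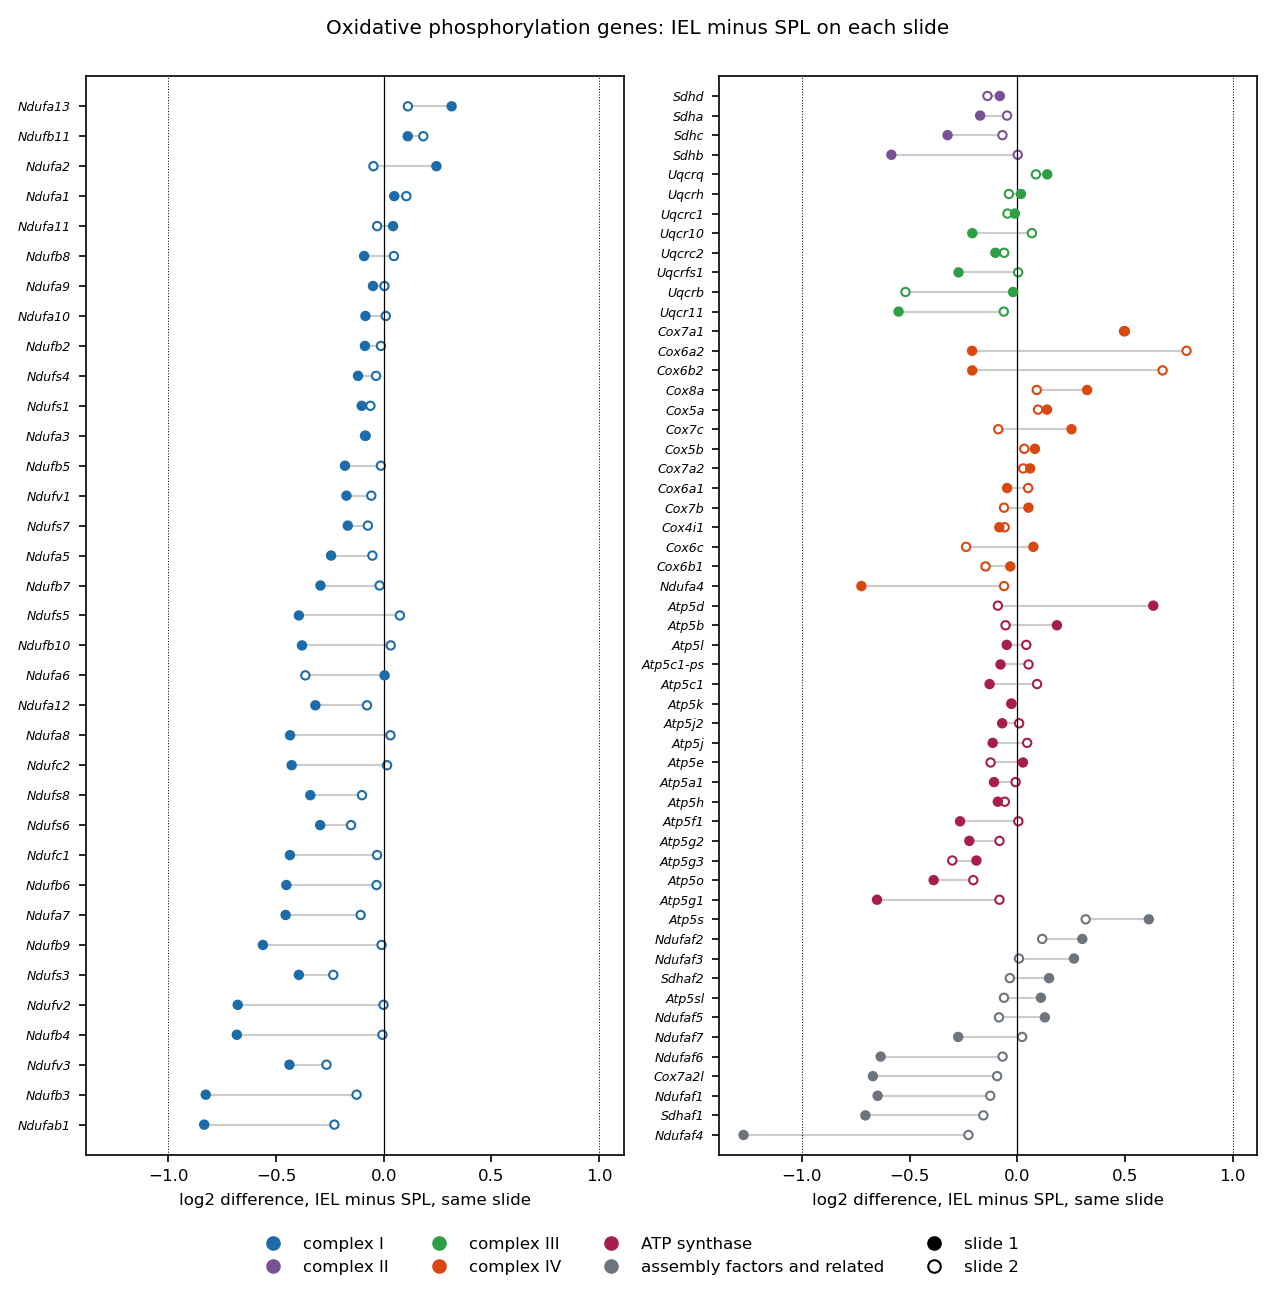
Log2 difference IEL minus SPL of 89 of the 90 tested genes on slide 1 (filled) and slide 2 (open), ordered by complex and by log2 fold change; dotted lines mark 2-fold. Complex I (left) shows 22 genes that are lower on both slides and 3 that are higher on both, and *Ndufaf4* on slide 1 is the 1 point past the 2-fold line.

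Complex I, which oxidizes NADH and is the largest of the chain, had slightly lower means in CD8αβ+ IELs. Of its 36 tested genes 30 had a lower mean, with a median log2 fold change of -0.16. In 18 of the 36 both IEL arrays lay below both SPL arrays, and in 2 both lay above. Over all tested genes each share was 24.6%. The median was -0.27 on slide 1 and -0.031 on slide 2, and none of the 36 passed the test. It was -0.048 without IEL replicate 1, so that the size rests largely on that sample.

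Core subunits of complex I carry the flavin and the iron-sulfur clusters that take electrons from NADH to ubiquinone. In the 6 described here both IEL arrays lay below both SPL arrays, as in 24.6% of all tested genes. *Ndufs3*, a core subunit of the arm in the matrix, had levels of 3.93 and 3.96 in the IEL samples and of 4.20 and 4.33 in the SPL samples. The groups did not overlap, and the log2 fold change was -0.31 (SE 0.23, n = 2 per group, limma adjusted p = 0.64). Levels of *Ndufv2*, which binds an iron-sulfur cluster next to the flavin subunit, were 1.37 and 1.97 in IELs and 1.97 and 2.05 in SPLs. IEL replicate 1 stood apart there, whereas IEL replicate 2 was level with SPL replicate 1, and the log2 fold change was -0.34 (SE 0.30).

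Further core subunits differed less. *Ndufs8*, with iron-sulfur clusters near the ubiquinone site, had a log2 fold change of -0.22, *Ndufs7*, its neighbor in the chain of clusters, one of -0.12, and *Ndufv1*, the flavin subunit itself, one of -0.11. *Ndufs1*, the largest subunit of the arm, had a log2 fold change of -0.082.

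**Figure D4:**
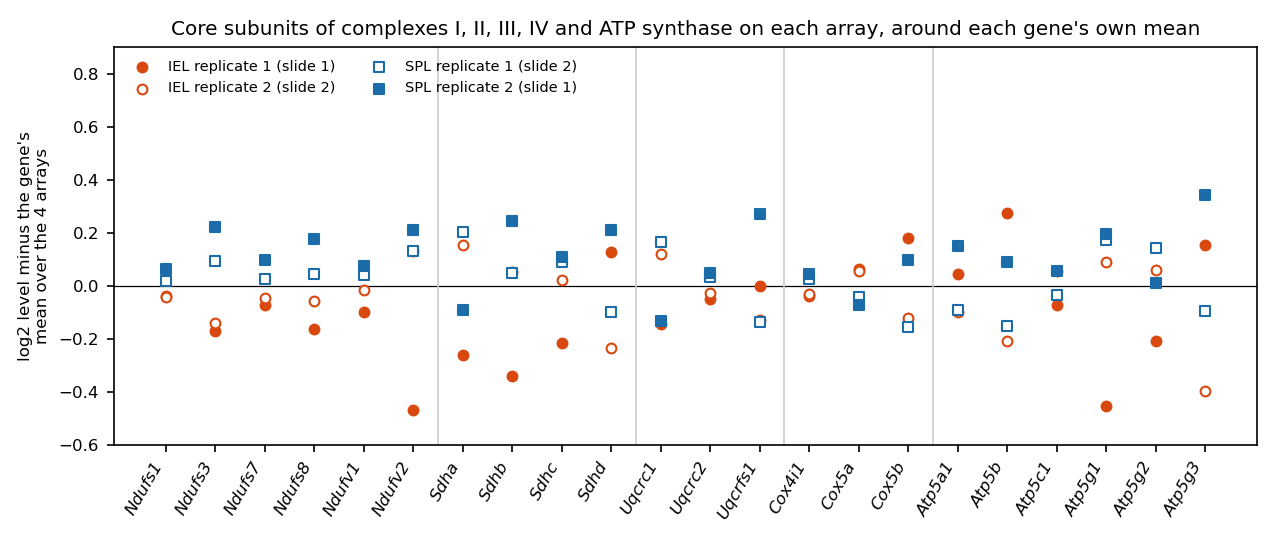
Log2 level of 22 core subunits on each array, minus the gene's own mean over the 4 arrays, with gray lines between complexes I, II, III, IV and ATP synthase. In complex I the IEL arrays (circles) lie below the SPL arrays (squares) in the 6 genes shown, whereas in complex III and in ATP synthase most of them mix. In complex IV the IEL arrays lie below in *Cox4i1* and above in *Cox5a*, and they mix with the SPL arrays in *Cox5b*.

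Among the 29 accessory subunits of complex I, 12 had both IEL arrays below and 1 had both above. Over all tested genes each share was 24.6%. *Ndufab1*, the mitochondrial acyl carrier protein, which also serves lipoic acid synthesis, was the lowest of complex I. Its levels were 2.47 and 2.85 in IELs and 3.08 and 3.31 in SPLs, a log2 fold change of -0.53 (SE 0.27, limma adjusted p = 0.634). Its probe lies at chr7:129235131-129235190 on the minus strand of mm9. At the other end stood *Ndufa13*, an accessory subunit also known as GRIM-19, with levels of 7.11 and 6.89 in IELs and 6.78 and 6.80 in SPLs and a log2 fold change of 0.21 (SE 0.24). Both extremes kept their direction on both slides, but neither passed the test.

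Complex II, succinate dehydrogenase, links the tricarboxylic acid cycle to the chain and has 4 subunits, all encoded in the nucleus. All 4 had a lower mean in IELs, with a median log2 fold change of -0.15, but the groups overlapped in 3 of them. *Sdhb*, the iron-sulfur subunit, had the lowest value, with levels of 2.54 and 2.93 in IELs and 2.93 and 3.12 in SPLs. Its log2 fold change was -0.29 (SE 0.27, limma adjusted p = 0.69). The difference was -0.58 within slide 1, against 0.003 within slide 2. *Sdha*, which binds the flavin, and *Sdhd*, which anchors the complex in the membrane, had log2 fold changes of -0.11 each, and *Sdhc*, the other anchor, one of -0.20.

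Complex III passes electrons from ubiquinol to cytochrome c, and its core was nearly level between the tissues. Of its 8 tested genes 7 had a lower mean, and the median change was -0.075 on the log2 scale. *Uqcrc2*, a core protein of the complex, had levels of 4.79 and 4.82 in IELs and 4.88 and 4.89 in SPLs. This was the 1 member of the complex with both IEL arrays below, by -0.081 (SE 0.22), and replicates of a tissue lay within 0.03 of each other. The Rieske iron-sulfur protein *Uqcrfs1* had a log2 fold change of -0.13, and *Uqcrc1*, the other core protein, one of -0.028. The extremes were small subunits, *Uqcrq* with 0.11 and *Uqcr11* with -0.31, and in *Uqcr11* IEL replicate 1, at 3.89, lay below the other arrays, which were between 4.44 and 4.54.

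Complex IV, cytochrome c oxidase, reduces oxygen, and it was the complex with a median above 0. Of its 14 tested genes 9 had a higher mean in IELs, with a median log2 fold change of 0.051, and 0 passed the test. This direction was not stable, since the median was -0.027 without IEL replicate 1, where that of all tested genes was -0.011. Under scaling by the array median complex IV had -0.005, but the median of all tested genes moved as well, to -0.058. Among the core of nuclear subunits, *Cox5a* had levels of 5.84 and 5.83 in IELs and 5.74 and 5.71 in SPLs, a log2 fold change of 0.12 (SE 0.22). *Cox4i1*, which takes part in the regulation of the enzyme by ATP, had levels of 6.55 and 6.55 in IELs and 6.61 and 6.63 in SPLs, a log2 fold change of -0.071 (SE 0.22). In both genes replicates were closer to each other than to the other tissue, although the differences were far below 1.5-fold. *Cox5b*, which binds zinc, had a log2 fold change of 0.058 with overlapping groups.

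*Ndufa4* was the lowest gene of complex IV, with levels of 3.52 and 3.98 in IELs and 4.04 and 4.25 in SPLs. The log2 fold change was -0.39 (SE 0.28, limma adjusted p = 0.64), and both IEL arrays were below both SPL arrays.

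Several subunits of complex IV exist as isoforms of different tissues, and in the samples of both tissues the general forms had the brighter probes. The tissue isoforms *Cox7a1*, *Cox6a2* and *Cox6b2*, described below, were also well above background on all 4 arrays. Which cells of the samples carried them was not tested. The probes of *Cox8b*, known from heart and brown fat, and of *Cox7b2* and *Cox8c*, known from testis, were well above background on 0 arrays, and that of *Cox4i2*, the hypoxia-responsive isoform known from lung, on 1. Their intensities lay between 1.42 and 8.74 units, so that no fold change is given. The general forms *Cox6a1*, *Cox7a2*, *Cox7b*, *Cox6b1* and *Cox8a* had log2 fold changes of 0.002, 0.044, -0.004, -0.089 and 0.21.

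*Cox7a1*, the isoform of heart and skeletal muscle, was the highest of all 90 genes, at low levels. It had -1.22 and -1.40 in IELs and -1.89 and -1.72 in SPLs, so that both IEL arrays were above both SPL arrays. The log2 fold change was 0.50 (SE 0.24, limma adjusted p = 0.634), and the within-slide differences were 0.50 on both slides. *Cox6a2*, also of muscle, had -2.46 and -0.45 in IELs and -1.23 and -2.25 in SPLs, where the spread between replicates exceeded the difference between tissues. *Cox6b2*, a testis isoform, had -0.98 and 0.15 in IELs and -0.53 and -0.77 in SPLs, again with IEL replicate 2 highest and IEL replicate 1 lowest.

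ATP synthase was close to level. Of its 16 tested genes 14 had a lower mean in IELs, with a median log2 fold change of only -0.041, and the groups overlapped in 14. The catalytic subunit *Atp5b* had levels of 7.17 and 6.69 in IELs and 6.75 and 6.99 in SPLs, a log2 fold change of 0.065 (SE 0.29). *Atp5a1*, the other large subunit of the catalytic head, and *Atp5c1*, the central stalk, had log2 fold changes of -0.057 and -0.018. The head was thus within the spread of replicates in each case.

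The 3 genes *Atp5g1*, *Atp5g2* and *Atp5g3* encode one and the same mature ring subunit, which turns with the proton flow, and differ in their import signals. All 3 had a lower mean in IELs. *Atp5g1* was the lowest of ATP synthase, with levels of 3.12 and 3.67 in IELs and 3.75 and 3.77 in SPLs and a log2 fold change of -0.37 (SE 0.29, limma adjusted p = 0.65). *Atp5g2* had a log2 fold change of -0.15 and *Atp5g3* one of -0.25, both with overlapping groups. *Atp5d*, a subunit of the central stalk, was the highest, with levels of 5.03 and 4.33 in IELs and 4.42 and 4.39 in SPLs. This difference came from IEL replicate 1 alone, with 0.63 on slide 1 and -0.09 on slide 2.

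The widest range was found among the 12 assembly factors and related genes, with 6 lower and 6 higher in the mean and a median of -0.052. *Ndufaf4*, an assembly factor of complex I, was the lowest of all 90 genes and the only one past 2-fold on a slide. Its levels were 1.49 and 2.18 in IELs and 2.41 and 2.76 in SPLs. Both IEL arrays were below both SPL arrays, with -1.27 on slide 1 and -0.23 on slide 2. The log2 fold change was -0.75 (SE 0.34, limma adjusted p = 0.634, unadjusted p = 0.0903), and another probe that was well above background on all 4 arrays had -0.51. The third probe, at 1.64 and 7.31 units in IELs, was well above background on only 2 arrays and is not used here. The probe used lies at chr4:24829194-24829253 on the plus strand of mm9.

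Further factors had differences of like size on slide 1. *Sdhaf1*, which helps to insert iron-sulfur clusters into complex II, had a log2 fold change of -0.43. *Ndufaf1* and *Ndufaf6*, both assembly factors of complex I, had -0.39 and -0.35, and *Cox7a2l*, a protein named like subunits of complex IV, had -0.38. In the 4 genes the difference was between -0.63 and -0.71 on slide 1 and between -0.16 and -0.07 on slide 2. The groups overlapped in *Ndufaf1*. Other factors of complex I were higher in the mean, namely *Ndufaf2* with 0.21, *Ndufaf3* with 0.14 and *Ndufaf5* with 0.022, and *Ndufaf7* had -0.13. Of the 12 genes, 4 had both IEL arrays below both SPL arrays and 3 had both above, against 24.6% of all tested genes each way. *Atp5s*, a protein related to ATP synthase, was the highest, with -1.16 and -1.22 in IELs and -1.54 and -1.77 in SPLs and a log2 fold change of 0.46 (SE 0.24).

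Without IEL replicate 2, the array closest to SPL replicate 1, limma called 19.7% of all tested genes at an adjusted p of 0.05 but 0 of the 90 members. In this fit the lone IEL sample was assumed to vary like the SPL samples. The smallest adjusted p of a member was then 0.0561, for *Ndufaf4* with a log2 fold change of -1.10, and 9 of the 90 had an unadjusted p below 0.05, against 36.1% of all tested genes. The methods' unpaired test without adjustment passed 4 members, against 2.91% of all tested genes. They were *Cox4i1*, *Cox5a*, *Ndufs3* and *Uqcrc2*, whose replicates lay unusually close, and after Benjamini-Hochberg adjustment 0 remained.

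Probes of 1 gene did not always move together. Of 29 genes with several tested probes, 9 had probes of opposite sign, and the median gap between the highest and the lowest probe was 0.16. The 5 genes with the widest gap among these 9 were *Atp5f1*, *Ndufv3*, *Ndufa3*, *Atp5b* and *Sdhaf2*. *Atp5f1*, which encodes a subunit of the peripheral stalk, had 0.98 for a dim probe at chr3:105761646-105761705 (minus strand, mm9), annotated to another transcript record, and -0.13 for the bright probe used here. On the dim probe IEL replicate 1 had a level of 0.42, whereas the other arrays lay between -1.24 and -0.83. In *Ndufv3*, an accessory subunit near the flavin, a probe gave 0.44 and the probe used here -0.35. The gap ran from 0.49 to -0.085 in *Ndufa3*, from 0.55 to -0.009 in *Atp5b* and from 0.21 to -0.26 in *Sdhaf2*, an assembly factor that inserts the flavin into complex II.

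Genes of the chain encoded in mitochondrial DNA were represented by 4 genes, and their means were higher in IELs. The array annotation places the probes of *CYTB* and *ND4* on mitochondrial DNA but those of *COX2* and *ATP6* on chromosome 1. Whether these probes also read a nuclear sequence was not tested. *COX2*, a catalytic subunit of complex IV, had levels of 9.21 and 8.47 in IELs and 8.46 and 8.36 in SPLs. Only IEL replicate 1 stood out there. *ATP6*, *CYTB* and *ND4* differed less. In these 3 the groups overlapped and SPL replicate 2 was the lowest array, with 6.98, 7.81 and 6.82. Over the 4 genes the median difference was 0.54 on slide 1 and -0.053 on slide 2. The median of replicate 1 minus replicate 2 was 0.21 in IELs and 0.32 in SPLs. None passed the test, and whether the slides differ was not tested. On slide 1 the medians over nuclear complex I and over these 4 genes lay on opposite sides of 0, at -0.27 and 0.54. The median of nuclear complex IV was 0.056 there, on the side of these 4 genes. On slide 2 the median was -0.031 for complex I, on the side of these 4 genes, and 0.030 for complex IV.

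Other mitochondrial genes were followed through lists of related function, for which other scalings were not run. Of 76 genes of the mitochondrial ribosome, which translates the mitochondrial messages, 62 had a lower mean in IELs, with a median log2 fold change of -0.23. In 37 of them both IEL arrays lay below and in 5 both above, against 24.6% of all tested genes each way. Of 11 genes of protein import 10 had a lower mean, with a median of -0.14. Enzymes of the tricarboxylic acid cycle had a lower mean in 10 of 13 genes, with a median of -0.070. Assembly factors of complexes III and IV (14 tested, median -0.11), electron carriers (5 tested, -0.007) and carriers and porins (7 tested, -0.062) had medians between those of the import genes and 0. In these lists 0 genes were called by limma.

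**Figure D5:**
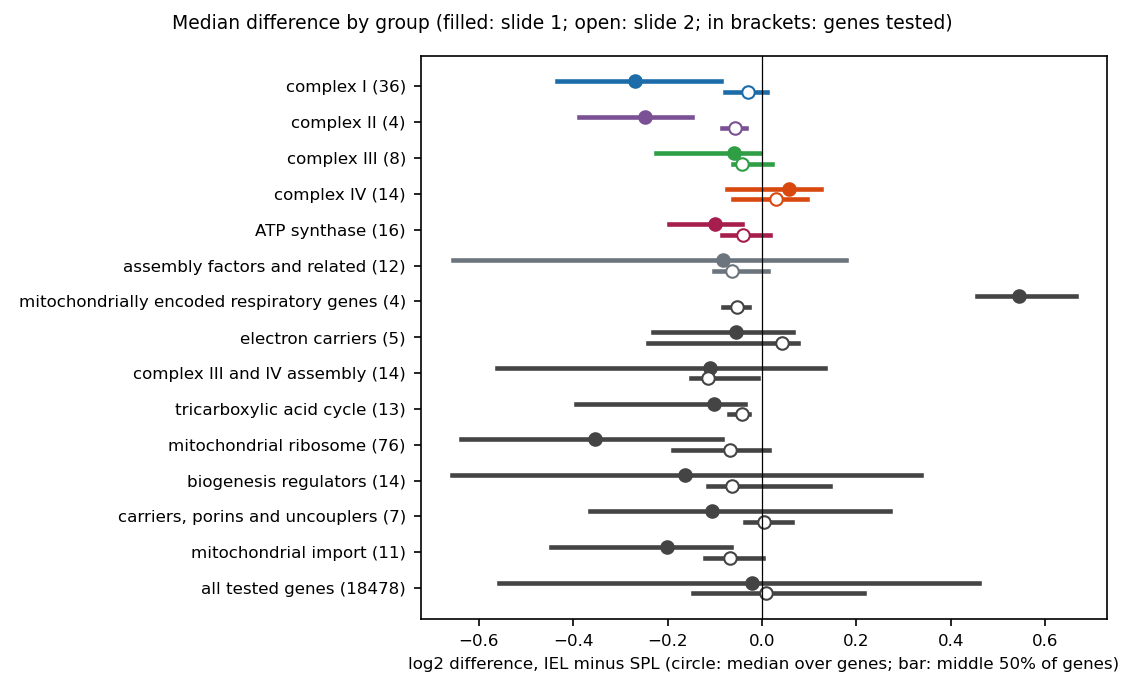
Median (circle) and middle 50% (bar) of the log2 differences IEL minus SPL over the genes of each complex, of related mitochondrial lists and of all tested genes, on slide 1 (filled) and slide 2 (open). Complex I at -0.27 and the mitochondrial ribosome at -0.35 lie lowest among the larger groups on slide 1, the mitochondrially encoded genes lie highest at 0.54, and on slide 2 all medians are within 0.12 of 0.

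The regulators of mitochondrial biogenesis were mixed, with 8 of 14 genes lower and 6 higher in the mean. Their median log2 fold change was -0.12, in a range from -0.64 to 0.75. *Nrf1*, a transcription factor of respiratory genes, had levels of -0.60 and -0.53 in IELs and -0.44 and -0.55 in SPLs, with overlapping groups. *Esrra*, a nuclear receptor that partners with PGC-1 coactivators, had 2.91 and 2.36 in IELs and 2.28 and 1.84 in SPLs, a log2 fold change of 0.57. *Gabpa*, the ETS factor that is also called NRF2, had a log2 fold change of 0.25, and *Tfam*, which packages mitochondrial DNA, one of 0.24, both with overlapping groups. In 5 of the 14 regulators both IEL arrays lay below both SPL arrays, and in 2, *Esrra* among them, both lay above. Over all tested genes each share was 24.6%. The 5 were *Polg*, which copies mitochondrial DNA, with a log2 fold change of -0.64, *Tfb1m* with -0.59, *Peo1*, the helicase, with -0.46, *Pprc1*, a coactivator, with -0.45 and *Polrmt*, the mitochondrial RNA polymerase, with -0.42.

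Some members share short promoter sequences, which the choice by name did not use. All 94 genes matched a RefSeq gene (GRCm38.p6), 93 of them by accession, and for 78 of them it gave a promoter of 300 bases, from 250 before to 50 after the start. Short cores were searched on both strands. The core GCATGCGC of the NRF1 site was found in 15.4% of these 78 genes and in 3.05% of all 27025 genes with a promoter. The core AAGATGGC of the YY1 site was found in 14.1% against 3.19%, and the ETS core CCGGAAGT in 6.41% against 4.31%. At least 1 core was found in 27 members (34.6% against 9.91%) of the 78, and the others held none. YY1 cores were found in 7 of 32 genes of complex I and in 3 of 14 of ATP synthase, and in 0 genes of complexes II, III and IV. No binding was measured, and a match is only a match of letters. The 27025 genes were not matched to the members by base content or expression. Whether the higher shares are particular to respiratory genes was therefore not tested.

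The stretches upstream of the start with an NRF1 core are shown for members at the bottom and in the middle of the range of changes, with the core in capitals and each read 5′ to 3′ on the strand of the gene. Where the capitals run to 10 bases the core matched on both strands, and these matches overlap. *Ndufaf4* had the lowest log2 fold change of all members, -0.75, *Sdhb* had the lowest of complex II, -0.29, *Atp5g2* had -0.15, *Atp5k*, a subunit of the membrane part of ATP synthase, had -0.027, and *Cox6a1* and *Ndufa11*, an accessory subunit in the membrane arm of complex I, had 0.002 and 0.006.
Ndufaf4 (chr4:24897950-24897999, plus strand): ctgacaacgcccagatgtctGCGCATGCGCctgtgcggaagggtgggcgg
Sdhb (chr4:140961197-140961244, plus strand): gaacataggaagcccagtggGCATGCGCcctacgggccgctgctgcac
Atp5g2 (chr15:102671060-102671109, minus strand): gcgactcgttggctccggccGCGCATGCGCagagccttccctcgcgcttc
Atp5k (chr5:108434420-108434469, minus strand): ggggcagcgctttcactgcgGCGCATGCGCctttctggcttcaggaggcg
Cox6a1 (chr5:115349091-115349140, minus strand): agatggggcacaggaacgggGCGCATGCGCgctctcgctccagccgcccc
Ndufa11 (chr17:56717682-56717731, plus strand): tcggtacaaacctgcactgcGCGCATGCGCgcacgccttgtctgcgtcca

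The same core thus stood before genes at the bottom and in the middle of the range. The 12 tested members with an NRF1 core had a median log2 fold change of -0.090, and the 64 without had -0.093. For the 11 members with a YY1 core it was -0.078, against -0.11 in the 65 without. *Atp5j*, a subunit of the peripheral stalk with a log2 fold change of -0.034, shows the YY1 core.
Atp5j (chr16:84835037-84835084, minus strand): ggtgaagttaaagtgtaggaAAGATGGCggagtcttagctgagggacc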

How the data were processed

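Total RNA from 2 samples of CD8αβ+ IELs and 2 of CD8αβ+ SPLs was hybridized to 4 Agilent 1-color arrays on 2 slides, which the file headers identify. The authors deposited 1 scanner file per array, in which Feature Extraction (10.7.3.1 in the file headers, 10.7.1.1 in the submitters' processing notes) gave a background-subtracted intensity per spot without normalization between arrays. They also deposited a table of log2 values of the same arrays, used as an alternative, whose extremes are equal on all arrays and whose ranks follow those of the scanner intensities.

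The log2 of the processed intensity minus each array's 75th percentile over 43379 spots (312, 435, 479 and 605 units for IEL replicates 1 and 2 and SPL replicates 1 and 2) was used. Spots marked as outliers (98 to 179 per array) were left out, 0 spots were saturated, and repeat spots were averaged. A probe had to be well above background on both arrays of a group, which 27937 probes were, and 63.6% to 69.6% of probes passed per array. Arrays give signal over background in place of a read depth, and their number limits the precision. The brightest tested probe stood for a gene.

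The comparison was made in R 4.3.3 with the linear models of limma 3.58.1, two-sided, without a block and with 2 residual degrees of freedom. P-values were adjusted by Benjamini-Hochberg across the tested probes, with 0.05 as the limit. An exact permutation test of 2 against 2 could not go below p = 0.33. The labels do not say whether samples came from separate mice, so p-values measure the spread between these samples. The labels do not say whether replicate numbers pair the samples. The correlation of deviations by replicate number was -0.025. Since each slide held unlike replicate numbers, slide and pairing act on this value together and it cannot decide the question. Positions are those of the array annotation (mm9).

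Genes named are core subunits, of which 1 is not reported here, tissue isoforms, the highest and lowest of each complex and 5 with discordant probes. Other genes, such as *Sdhaf1* and *Cox7a2l*, were named after their values were seen. The members, lists and rules were chosen with earlier results of these data known. Alternatives were other scalings, normexp with an offset of 50, the authors' values, other filters, marked spots kept, a variance trend, the methods' unpaired test, blocks, each sample left out, averaged probes of a gene and a limit of 0.01.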

Additional observations from a re-analysis of the deposited data

How the results depend on the processing

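Under the alternatives other than the first normexp fit, the median log2 fold change of the 90 genes stayed between -0.153 and -0.048, and 0 genes were called by limma. The first normexp fit, in which 3 to 16 spots per array lay over 20 units under the local background, gave 0.308 (all tested genes -0.311) and 0.898 on slide 2, with 13 genes above and 1 below on both arrays, and it changed the sign of 64 genes. The second, without those spots, gave -0.153 (all tested genes 0.138) and -0.257 on slide 1, and the authors' values gave -0.255 on slide 1. Scaling by the median left 2 genes above and 46 below, with a median of -0.058 over all tested genes. Without *Ndufaf4*, a choice made after seeing the data, the median was -0.081. Without the filter the median of all tested genes was 0.155. The methods' unpaired test without adjustment called 470 probes higher and 349 lower, among them 1 member higher and 3 lower.

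With each sample left out in turn, the members' median was between -0.113 and -0.048, genes above numbered 10 to 25 and genes below 39 to 53. Probes called higher numbered 0 to 2390 and those called lower 0 to 3063, the larger counts without IEL replicate 2, with 0 members called. With the replicate block, 0 genes were called and the members' median was -0.082, so that this block changed no call.

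Complexes I, II and III and ATP synthase had a median below 0 in each of the 11 alternatives that can move these medians, the first normexp fit apart, and complex IV in 5 of them. The number of arrays, 2 per group, limits the precision.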
